A study of Mus musculus with 22 samples.

Results

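Hearts that had lost Ronin under the αMHC::Cre driver were compared with their controls on the day of birth (P0). Members of the comparison are the array probes that name 1 gene symbol and are brighter at P0 than the median probe, and 19036 of the 45281 probes met this rule, which stand for 11867 of the 19057 genes on the array. A gene was read from its brightest probe over all arrays, which left 11779 genes to test. The knockout group holds 2 arrays of hearts with αMHC::Cre and both Ronin alleles floxed, and the control group 2 arrays of hearts with the same Cre and 1 floxed allele (MHC::Cre; RoninloxP/+), so homozygous deletion was set against heterozygous deletion. All mice were C57BL/6 and all tissue was heart at P0. The genotype field of the knockout records names Nkx2.5::Cre, whereas titles and source names give the MHC driver, which was followed. The study also holds αMHC::Cre hearts at E11.5 and 6 weeks and Nkx2.5::Cre hearts at E9.5 and E11.5, each with knockouts and its own controls, which makes 22 arrays in 10 groups.

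Ronin, encoded by Thap11, is a zinc finger protein that binds a short motif in promoters and works with the cofactor Hcf-1, which brings in enzymes that methylate histone H3 at active genes. Its known targets serve translation, mitochondrial function and basic metabolism. The αMHC promoter belongs to Myh6, the cardiac myosin heavy chain gene, and is active in heart muscle cells. The paper's reporter cross with this driver marked the bulk of the heart. Whether fibroblasts, vessel cells and other cells of the heart kept their Ronin alleles was not tested here. Around birth the heart muscle cell leaves the cell cycle and turns from glucose toward fatty acids as fuel.

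The 4 arrays did not fall apart by genotype. Over the genes tested, knockout 1 and control 1 resembled each other most (Pearson r = 0.996 across genes), with 91 genes more than 1.5-fold apart, whereas the other 5 pairs of arrays had 524 to 974 such genes, and the knockouts differed from each other in 524 genes. Knockout 2 and control 2 stood farther from the rest, and counts are given below with each array left out. The sex-linked transcripts differed between arrays of a group as well. Xist, expressed from the inactive X chromosome, read 348 and 72.1 in knockouts 1 and 2 (normalized intensity in arbitrary units, as for all array values here), against 2244 and 91.5 in controls 1 and 2. The Y-linked gene Eif2s3y read 2835 and 4954 in the knockouts, against 488 and 3069 in the controls, so that knockout 1 and control 1 each showed both transcripts. The labels do not say whether P0 hearts were pooled or came from separate animals, and p values measure only the spread between arrays. In the main model this spread is pooled for each gene over all groups of the study. Standard errors and p values from limma thus do not show the scatter of the P0 arrays alone. Heart muscle markers were bright, but Tnnc1, Myl2 and Actc1 lay near the highest intensity of the arrays, where differences may not show, and the other 6 summed to 91198 and 110097 in knockouts and 102864 and 93969 in controls, with overlap. Lung markers were dim, with 2 of 10 above the median probe. Of 10 liver markers 5 were above it, and the sum over all 10 was 3853 and 3352 in knockouts and 3068 and 2957 in controls. Ahsg, a secreted liver protein, read 1704 and 1720 in knockouts and 1288 and 1238 in controls, and Alb 75.6 and 73.6 in knockouts and 68.7 and 72.2 in controls.

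Thap11 itself read 3238 and 2944 in knockout hearts, against 4067 and 4154 in control hearts. Both knockout arrays lay below both control arrays, at 78.8% and 71.6% of the control mean. The log2 difference was −0.41 (SE 0.31, unadjusted p = 0.20 from limma), and the exact permutation test gave a two-sided p of 0.333, the smallest that 2 against 2 arrays allow. The SE of 0.31 includes the spread at other ages and drivers, since the model pools all groups. In the P0 arrays fitted alone, the same difference of −0.41 had an unadjusted p below 0.05 (limma). The array has 1 probe for Thap11, and whether it lies in the deleted part was not tested. In whole hearts, fewer cells that express a gene and less RNA per cell cannot be told apart.

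At P0 no gene passed an adjusted p of 0.05 (Benjamini-Hochberg over 11779 genes in limma, 0% called), and the smallest adjusted p was 0.9998. At an unadjusted p below 0.05, 230 genes (1.95%) were above and 207 (1.76%) below their controls, or 437 (3.71%) in all. The knockout and control arrays did not overlap for 1723 genes with higher knockouts (14.6%) and 1850 with lower knockouts (15.7%), or 3573 (30.3%) in all. Differences over 1.5-fold were seen for 55 genes with higher levels (0.467%) and 61 with lower levels (0.518%), and 5 (0.0424%) and 10 (0.0849%) genes exceeded 2-fold. The 11779 log2 differences had a median of −0.00, and 50.9% lay below 0. The count at an unadjusted p below 0.05 rested on single arrays, with 162 genes without knockout 2, 201 without control 2, 832 without control 1 and 1012 without knockout 1. Without control 1, 8 genes passed the adjusted test, and Zfp46, Rbm5 and Kcnj4 among them showed control 2 alone apart from the other arrays. Zfp46, a zinc finger gene, read 5927 and 4869 in knockouts and 6325 and 2207 in controls. Without knockout 2, Fcna, a ficolin of macrophages and liver, passed, with 622 and 198 in knockouts and 230 and 167 in controls. Single genes named from here on did not pass the adjusted test at P0, and their values describe these 4 arrays.

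Genes that were lower in the other knockout hearts were mostly below their controls at birth as well. In the other comparisons, which use other hearts and their own controls, 15 genes tested at P0 were called lower in each of 3 settings (αMHC::Cre at 6 weeks, Nkx2.5::Cre at E11.5 and at E9.5). All 15 were below their controls at P0, with a median log2 difference of −0.45 against −0.00 for all genes. Knockout and control arrays did not overlap for 13 of the 15 (15.7% of all genes did so in this direction), and 8 had an unadjusted p below 0.05 (1.76% of all genes). The p values at P0 share the pooled spread of each gene with the calls elsewhere, so this count of 8 is not independent of the choice. The 15 stayed below 0 with each P0 array left out in turn, with medians of −0.53 to −0.35, whereas 4 (without knockout 2), 5 (without control 2), 6 (without control 1) and 8 (without knockout 1) then had an unadjusted p below 0.05. αMHC hearts at E11.5 had 1 called gene (0.0084%) and so were left out of this choice, and all 15 genes were below 0 there too, with a median of −0.24. No gene tested at P0 was called higher in all 3 settings.

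Pomgnt2, a glycosyltransferase that builds the sugar chains of dystroglycan and so ties muscle cells to the matrix, had the largest difference of the 15. It read 453 and 347 in knockout hearts, against 702 and 782 in control hearts. The log2 difference was −0.90 (SE 0.22), and all 3 probes of the gene were lower, by −0.90 to −0.56. The same gene differed by −1.75 at 6 weeks, −1.57 in E11.5 Nkx2.5 hearts, −1.11 in E9.5 Nkx2.5 hearts and −0.39 in αMHC hearts at E11.5. Pomt2, an O-mannosyltransferase that acts earlier on the same chain, read 436 and 385 in knockouts and 613 and 800 in controls. Its log2 difference of −0.77 (SE 0.18) had the lowest unadjusted p of all genes at P0, though its other probe gave −0.09. Pomt2 was among the genes called lower at 6 weeks (−0.96) and read −0.53 and −0.49 in E11.5 and E9.5 Nkx2.5 hearts. Ctf1, a cytokine of the interleukin 6 family that acts on heart muscle, read 219 and 203 in knockouts and 324 and 289 in controls (log2 difference −0.54, SE 0.24).

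Several of these genes serve mitochondria. Coa3, an assembly factor of cytochrome c oxidase, read 8436 and 7240 in knockout hearts and 10607 and 11490 in control hearts. Its log2 difference was −0.50 (SE 0.12), both probes were lower, and at 70.8% of controls the knockouts were clear of the control range. Mrpl34, a protein of the large mitochondrial ribosomal subunit, read 4412 and 2962 in knockouts and 5049 and 4849 in controls (−0.45, SE 0.19). Its partner in the same subunit, Mrpl24, read 2350 and 2404 in knockouts and 2615 and 3450 in controls (−0.34, SE 0.19). Adck1, a kinase-like protein of mitochondria, read 343 and 378 in knockouts and 486 and 612 in controls (−0.60, SE 0.17). In each of these 4 genes both knockouts lay below both controls. Mtrf1, a mitochondrial translation release factor, overlapped between groups, with 628 and 479 in knockouts and 822 and 622 in controls (−0.38, SE 0.20). Bckdk, the kinase that restrains branched-chain amino acid breakdown, read 2692 and 3176 in knockouts and 3851 and 3570 in controls (−0.34, SE 0.23). Uqcr10, a small subunit of respiratory complex III, was at 55249 and 47473 in knockouts and 58976 and 58238 in controls (−0.19, SE 0.13), close to the upper end of the scale.

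The remaining genes of the 15 have varied roles. Tmub1, a membrane protein with a ubiquitin-like domain, read 356 and 384 in knockouts and 529 and 650 in controls (−0.66, SE 0.17). Rabac1, which binds prenylated Rab proteins in the Golgi, read 8890 and 8563 in knockouts and 12601 and 11584 in controls (−0.47, SE 0.20). Dnajc18, a DnaJ-type cochaperone, read 354 and 293 in knockouts and 425 and 469 in controls (−0.47, SE 0.16). In these 3 genes both knockouts lay below both controls. Thyn1 and Enox2 were nearest to their controls, with log2 differences of −0.13 and −0.12 (SE 0.17 and 0.18). Thtpa, the thiamine triphosphatase, and Ap1g2, a subunit of the clathrin adaptor AP-1, lie beside each other on chromosome 14, and their values are given with it.

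**Figure D1:**
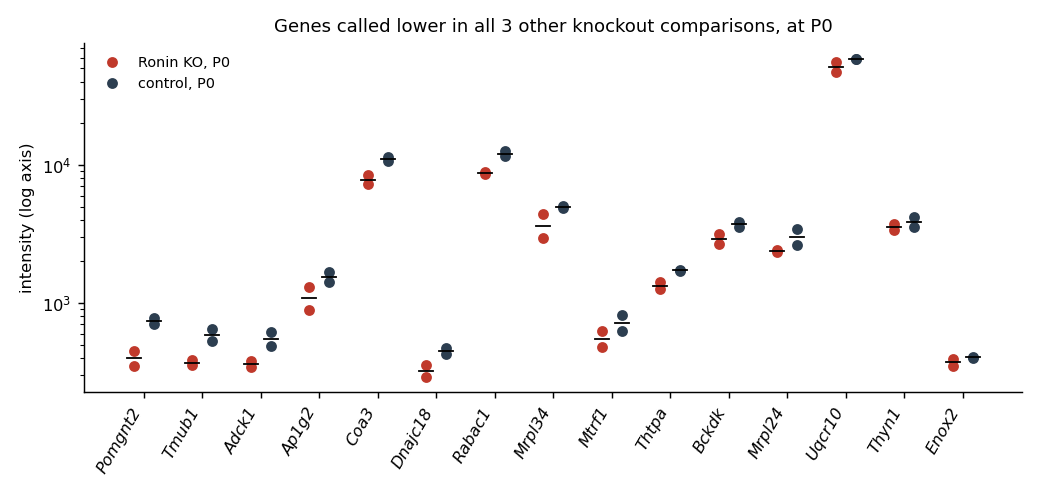
Intensity on a log axis of the 15 genes called lower in all 3 other knockout comparisons, in the 2 knockout arrays (left of each pair) and the 2 control arrays (right) at P0. Points are arrays and bars the geometric mean of a group, and 13 of the 15 genes show both knockouts below both controls.

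**Figure D2:**
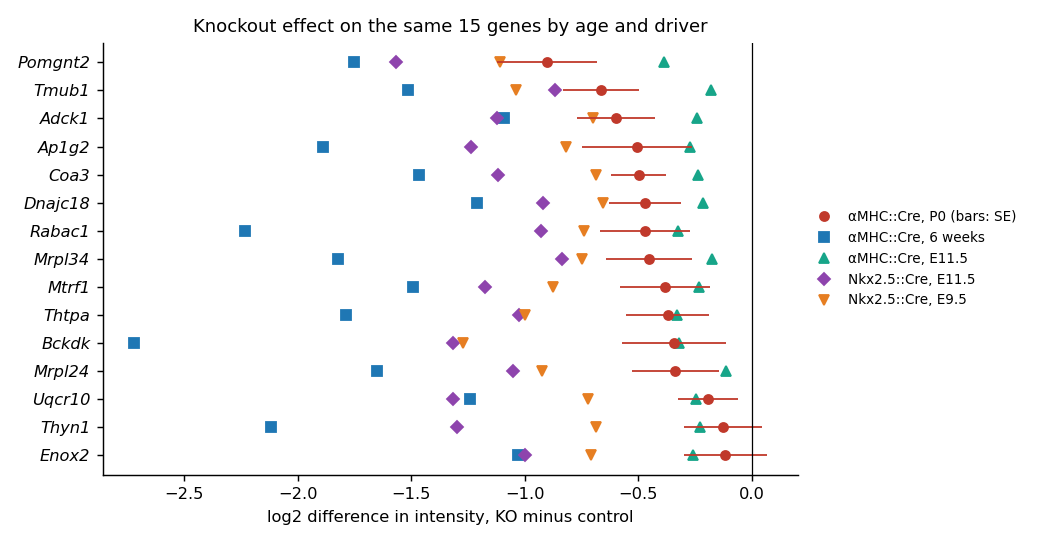
Log2 difference, knockout minus control, of the same 15 genes in the 5 comparisons of the study, with the standard error of the P0 value as a bar. The P0 values run from −0.90 for Pomgnt2 to −0.12 for Enox2, and the 6-week values all lie further below 0. The genes were chosen by their values at 6 weeks and in Nkx2.5 hearts, which favours larger differences there.

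Most promoters of these genes hold the Ronin motif, which the choice of the genes did not use. The motif was searched by its published consensus (called here the Ronin motif), on both strands, in the RefSeq promoters of GRCm38.p6, each taken as 250 bases before to 50 bases after a gene's start. Of all 27025 genes with such a promoter 705 held a match (2.61%), and of the genes tested at P0 523 of 9523 did (5.49%). The 15 genes include 14 with a promoter in the table, and 13 of these held the motif. Among the genes called lower elsewhere and tested at P0, the motif was found in 24 of 31 for E9.5 Nkx2.5 hearts (77.4%), in 20 of 36 for E11.5 Nkx2.5 hearts (55.6%) and in 27 of 83 for αMHC hearts at 6 weeks (32.5%). Of the genes with an unadjusted p below 0.01 at P0, 5 of the 32 lower ones held it (15.6%) and 3 of the 35 higher ones (8.57%). At an unadjusted p below 0.05, 18 of 169 lower ones (10.7%) and 15 of 194 higher ones (7.73%) held it. Of 131 Ronin/Hcf-1 targets with the motif, 6 were lower (1.76% of all genes) and 7 higher (1.95% of all genes) at this threshold. All 523 tested genes with the motif had a median log2 difference of −0.02, with 278 below 0. Gm5113, Swt1 and Pdcd10, Ronin/Hcf-1 targets with higher knockouts, also held the motif but are not printed, and all genes printed had lower knockouts. The matches below are from 4 Ronin/Hcf-1 target genes (Thap11, Adck1, Mrpl34 and Rabac1) and from 3 further genes with low p values at P0 that were chosen after their values were seen (Pomgnt2, Coa3 and Tmub1). Each is written 5′ to 3′ on the strand of the gene, with the motif in capitals, so that 6 of the 7 show it in reverse complement and Thap11 shows it forward.
Pomgnt2, chr9:121996076-121996116, minus strand: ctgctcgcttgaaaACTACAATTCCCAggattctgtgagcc
Coa3, chr11:101278988-101279028, minus strand: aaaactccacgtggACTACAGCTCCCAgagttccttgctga
Tmub1, chr5:24447858-24447898, minus strand: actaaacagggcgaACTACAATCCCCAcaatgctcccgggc
Adck1, chr12:88360467-88360507, plus strand: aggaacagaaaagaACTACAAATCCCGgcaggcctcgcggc
Mrpl34, chr8:71464899-71464939, plus strand: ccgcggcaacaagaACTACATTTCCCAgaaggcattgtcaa
Rabac1, chr7:24972805-24972845, minus strand: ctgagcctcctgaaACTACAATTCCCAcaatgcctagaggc
Thap11, chr8:105855071-105855111, plus strand: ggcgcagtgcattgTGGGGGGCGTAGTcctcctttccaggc

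The match ended 63 bases before the start of Pomgnt2, 53 before that of Coa3, 25 before that of Tmub1, 20 before that of Adck1 and 90 before that of Rabac1. Mrpl34 held 3 matches, and the one printed ended directly at its start. Rabac1 held a further match, which spans its start and is not printed. In the promoter of Thap11 the match ended 5 bases before the start. A match says only that these letters stand in the window.

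The wider sets of genes called elsewhere were read at P0 in the same way. Of the genes called lower in E11.5 Nkx2.5 hearts (42 genes, 0.355% of those tested there), 40 were tested at P0, and 39 of these were below 0 (97.5%, against 50.9% of all genes) with a median log2 difference of −0.33. Of those called lower in E9.5 Nkx2.5 hearts (38 genes, 0.324%), 33 of 35 were below 0 (94.3%, median −0.34). Of those called lower in αMHC hearts at 6 weeks (109 genes, 0.931%), 88 of 100 were below 0 (88%), with a median of −0.19 at P0 against −1.40 at 6 weeks. The 6-week median comes from the values by which these genes were chosen, so it does not measure how far the ages differ. The genes called higher showed the same tendency in smaller sets, with 15 of 19 above 0 for E9.5 Nkx2.5 hearts, 8 of 11 for E11.5 Nkx2.5 hearts and 39 of 61 for 6 weeks (called higher 0.188%, 0.101% and 0.564% of genes). At an unadjusted p below 0.05, 14, 14 and 21 of the genes lower at E11.5, E9.5 and 6 weeks were lower at P0 (1.76% of all genes), and 0, 0 and 1 were higher (1.95% of all genes). Here too the pooled spread is shared with the calls elsewhere. Leaving out 1 P0 array at a time left 75% to 89% of the 6-week genes, 87.5% to 97.5% of the E11.5 genes and 91.4% to 97.1% of the E9.5 genes below 0. Across all genes the P0 differences were only weakly related to those elsewhere, with Pearson r across genes of 0.139 for 6 weeks, 0.059 for αMHC hearts at E11.5, 0.160 for E11.5 Nkx2.5 hearts and 0.086 for E9.5 Nkx2.5 hearts, and genes are not independent replicates.

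**Figure D3:**
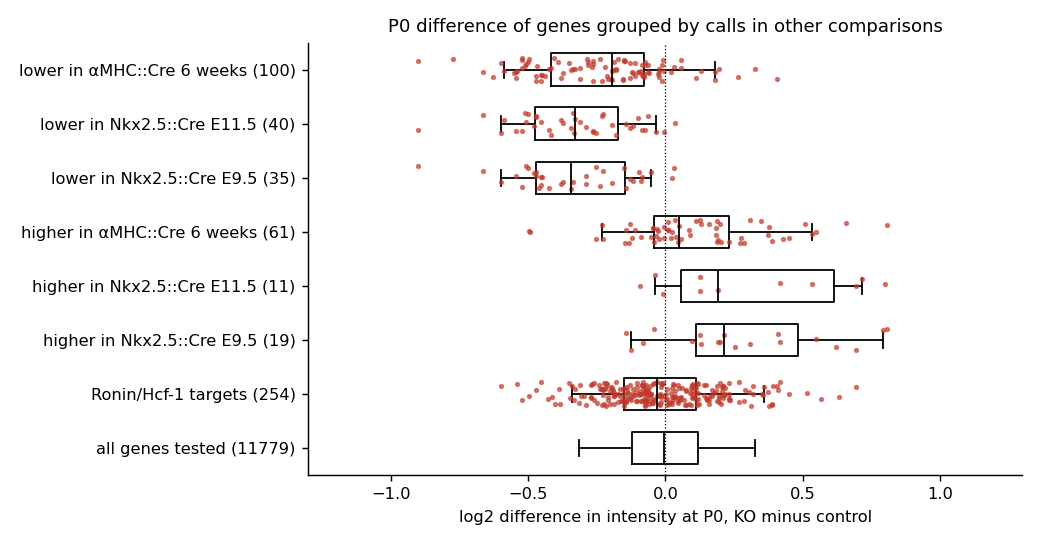
Log2 difference at P0, knockout minus control, of genes grouped by their calls in the other comparisons, of the Ronin/Hcf-1 targets and of all genes tested, with the number of genes in brackets. Boxes span the quartiles with the median as a line, whiskers the 5th to 95th percentile, points are genes, and the 3 sets called lower elsewhere have medians of −0.19, −0.33 and −0.34.

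Among genes with higher knockouts at P0, Trmt10a, a tRNA methyltransferase, was also called higher in E9.5 Nkx2.5 hearts and in αMHC hearts at 6 weeks. It read 1049 and 1063 in knockout hearts, against 613 and 595 in control hearts, a log2 difference of 0.81 (SE 0.21). The replicates of each group nearly coincided, and its value was 1.99 at 6 weeks and 0.68 in E9.5 Nkx2.5 hearts. Zfp446, a zinc finger gene, read 449 and 474 in knockouts and 328 and 216 in controls (0.79, SE 0.20). It was called in E9.5 Nkx2.5 hearts, where it differed by 0.83. Gm5113, a predicted gene in the list of Ronin/Hcf-1 targets, read 268 and 346 in knockouts and 181 and 196 in controls (0.69, SE 0.20). Gm5113 was called higher in Nkx2.5 hearts at both ages (0.89 at E9.5 and 0.91 at E11.5). Acp6, a mitochondrial lipid phosphatase, lay on the other side, with 1278 and 1228 in knockouts and 1801 and 1972 in controls (−0.59, SE 0.18), and was called lower in E11.5 Nkx2.5 hearts and at 6 weeks.

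The Ronin/Hcf-1 targets, taken from the study's own list of genes bound by both proteins in embryonic heart, showed no common direction at P0. Of 342 listed genes 315 had a probe and 254 were tested, of which 141 (55.5%) were below 0, against 50.9% of all genes. Their median was −0.03, against −0.00 for all genes, and 9 were above (1.95% of all genes) and 7 below (1.76% of all genes) their controls at an unadjusted p below 0.05. Besides Gm5113 and Adck1, the lowest p values belonged to Swt1, an RNA endonuclease (691 and 702 in knockouts, 601 and 395 in controls, 0.52, SE 0.17), and to Pdcd10, an adaptor protein of vessel development (520 and 732 in knockouts, 474 and 366 in controls, 0.57, SE 0.20). The 4 targets whose promoters the study examined by chromatin qPCR were all below their controls with no overlap (15.7% of all genes did so in this direction). They are Ctf1 and Mrpl34 (above), Apba3, an adaptor protein, with 707 and 780 in knockouts and 802 and 956 in controls (−0.24, SE 0.22), and Smarcal1, a DNA annealing helicase, with 653 and 637 in knockouts and 735 and 779 in controls (−0.23, SE 0.22). Since the study chose these 4, they are not independent evidence of direction.

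The largest negative differences at P0, other than that of Pomgnt2, belonged to genes that were not called elsewhere. Supt16, a subunit of the histone chaperone FACT, had the largest difference of all, with 333 and 148 in knockout hearts and 1401 and 1972 in control hearts. Its log2 difference was −2.91 (SE 0.89), but its second probe gave −0.20. In the other comparisons Supt16 differed by −0.73 at 6 weeks and by 0.10 to 0.28 in embryos. It passed the adjusted threshold when the 4 P0 arrays were fitted alone, as did D830030K20Rik, another gene of chromosome 14, with 154 and 120 in knockouts and 399 and 526 in controls. Pam, which amidates peptide hormones, read 424 and 118 in knockouts and 636 and 1287 in controls (−2.02, SE 0.55), with a second probe at 0.01. The same probe of Pam gave −2.33 in E11.5 Nkx2.5 hearts and 0.66 in αMHC hearts at E11.5. Tmem51, a membrane protein, read 3448 and 2385 in knockouts and 4628 and 6192 in controls (−0.90, SE 0.28). Cmya5, a muscle protein that anchors signaling at the sarcomere, read 1309 and 1482 in knockouts and 2170 and 3469 in controls (−0.98, SE 0.34), with its 3 probes between −0.98 and −0.07. Bend6 (−1.03), Vsnl1, a neuronal calcium sensor (−0.88), and A930005H10Rik (−1.09) complete, with Pomgnt2, the lower genes that do not lie on chromosome 14.

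On the other side, Epm2aip1, named for its binding to laforin, read 1544 and 2106 in knockouts and 987 and 701 in controls (1.12, SE 0.39). Its 5 probes ranged from −0.22 to 1.12. Wdr82, a subunit of the Set1 methyltransferase complex, read 1382 and 2276 in knockouts and 893 and 1026 in controls (0.89, SE 0.31), and its other 3 probes were below 0. The knockouts were clear of the controls in both genes, yet the direction rested on 1 probe in Wdr82. At 6 weeks Epm2aip1 differed by 1.22, Wdr82 by 0.99 and Pak3, a kinase, by 1.38, each with an unadjusted p below 0.05 but not called. Zc3h6 (1.01), Tpsab1, a mast cell tryptase (0.86), and Lrif1 (0.84) had their lowest values in control 2, which read 121, 230 and 233 in these genes, against 282, 534 and 366 in control 1. In Slc15a2, a peptide transporter (0.84), the controls read 103 and 85.3, below the median probe of 107.6, so that the gene passed the filter through its knockouts (141 and 199) and the size of its difference is uncertain. Slc15a2, Pak3 (0.83), Pik3r4, a subunit of the class III phosphatidylinositol kinase (0.77), and Zfp62 (0.77) make up the rest of the 12 together with Trmt10a, Zfp446 and Slc7a3. They were taken from the 211 genes above (1.79%) and the 200 below (1.7%) their controls that had an unadjusted p below 0.05 and no overlap. Of these 24 genes, 11 kept an unadjusted p below 0.05 without control 2, and 11 without knockout 2.

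**Figure D4:**
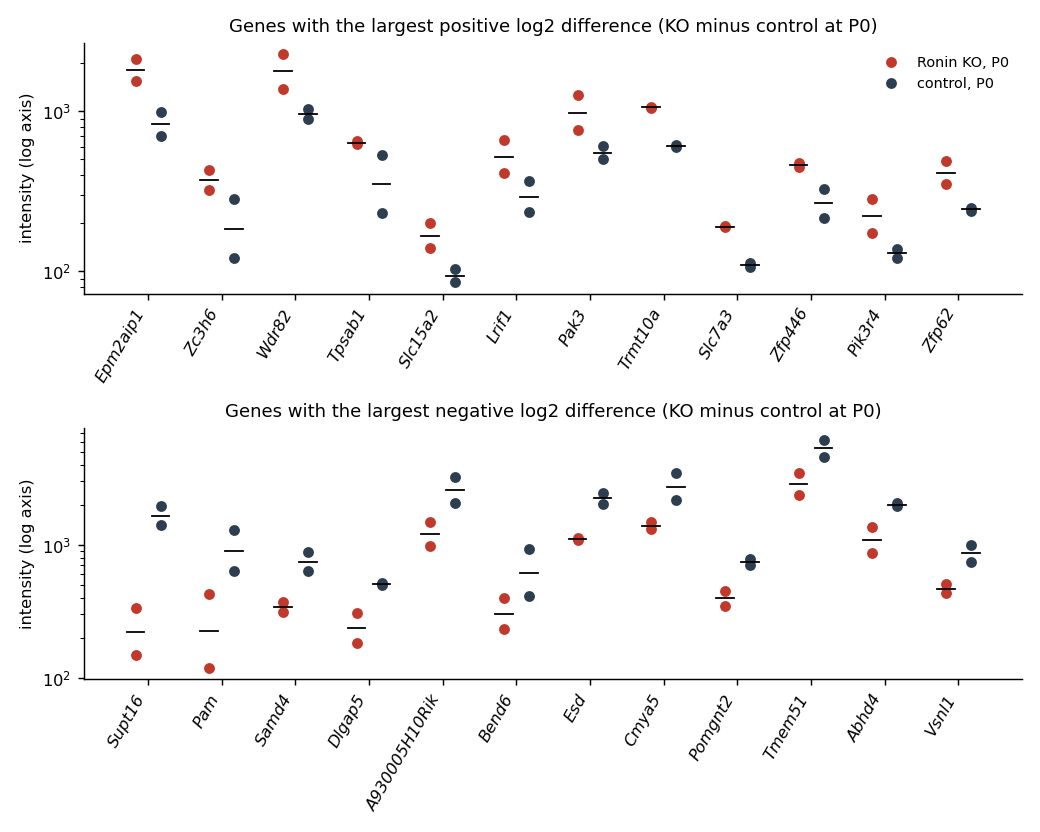
Intensity on a log axis of the 12 genes with the largest positive (top) and the 12 with the largest negative (bottom) log2 difference at P0, among genes with an unadjusted p below 0.05 whose groups do not overlap. Red points are the 2 knockout arrays, dark points the 2 control arrays and bars the geometric means, and Supt16 shows the widest gap, with knockouts at 333 and 148 and controls at 1401 and 1972.

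Chromosome 14, which carries Myh6, held a larger share of genes with P0 differences than any other chromosome. Of its 416 genes tested, 27 (6.49%) had an unadjusted p below 0.05, against 3.71% of all genes, and the other chromosomes ranged from 1.94% (chromosome 4) to 5.25% (chromosome 3). At an unadjusted p below 0.01 it held 9 genes (2.16%), whereas all 11779 genes tested held 41 higher and 38 lower ones. It held 9 of the 61 genes that were more than 1.5-fold lower (0.518% of all genes). The chromosome was singled out after its values were seen. Without knockout 2, 10 of its genes (2.40%, against 1.38% of all genes) had an unadjusted p below 0.05, without control 2, 12 (2.88%, against 1.71%), without control 1, 40 (9.62%, against 7.06%) and without knockout 1, 55 (13.2%, against 8.59%). In the order of the tested genes along the chromosome, the 27 genes ran from place 19 (Atxn7) to 403 (Mbnl2). Of these, 13 were above (1.95% of all genes) and 14 below their controls (1.76% of all genes). Among the lower ones, Samd4 was at place 151, Dlgap5 at 157, Ang at 171, Supt16 at 179, Abhd4 at 185 and Psmb5 at 196. Myh6 was at 206 and Myh7 at 208. Higher genes lay in the same stretch, such as Socs4 at 154 (0.41) and Irf9 at 221 (0.58). On chromosome 8, which carries Thap11, 4% of the 625 genes tested had an unadjusted p below 0.05. Myh6 serves only as a landmark on chromosome 14. The paper describes the αMHC::Cre mice as transgenic, both groups carried the Cre, and where it lies in the genome was not tested.

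Psmb5, a catalytic subunit of the proteasome, read 1403 and 1258 in knockouts and 2254 and 2412 in controls. The groups were well apart (−0.81, SE 0.20), and in the other comparisons Psmb5 differed by −0.04 at 6 weeks and by −0.02 to 0.17 in embryos. Abhd4, a lipid hydrolase, read 1351 and 865 in knockouts and 2065 and 1953 in controls (−0.89, SE 0.24), with −0.00 at 6 weeks and −0.09 to 0.11 in embryos. Samd4, an RNA-binding repressor of translation, read 314 and 369 in knockouts and 637 and 877 in controls (−1.13, SE 0.35). Dlgap5, a mitotic spindle protein, read 308 and 183 in knockouts and 501 and 515 in controls (−1.09, SE 0.30). In both the knockouts lay below the controls, but only the brightest of the 3 probes of each gave the difference (the others of Samd4 lay at −0.13 and −0.02, those of Dlgap5 at −0.04 and −0.02). Esd, an esterase at place 341, read 1091 and 1126 in knockouts and 2034 and 2478 in controls (−1.02, SE 0.48), with its 4 probes from −1.02 to −0.02. The difference between P0 and αMHC hearts at E11.5 was −0.87 for Psmb5 and −1.01 for Abhd4 and did not pass the adjusted test (adjusted p = 0.9995 for both), so that a difference particular to P0 was not shown.

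Just beyond Myh7, 3 neighbouring genes that were called lower at 6 weeks were also below controls at P0. Zfhx2, a homeobox gene at place 210, read 411 and 340 in knockouts and 454 and 653 in controls (−0.54, SE 0.24). Thtpa at place 211 read 1257 and 1411 in knockouts and 1747 and 1699 in controls (−0.37, SE 0.18). Ap1g2 at place 212 read 1309 and 894 in knockouts and 1671 and 1412 in controls (−0.51, SE 0.24). At 6 weeks they differed by −1.40, −1.79 and −1.89, and in E11.5 Nkx2.5 hearts by −0.93, −1.02 and −1.24. All 3 genes were below controls in E9.5 Nkx2.5 hearts too, so their lower levels were not limited to the αMHC driver. Ngdn at place 209, between Myh7 and Zfhx2, differed by −0.20 at P0 (unadjusted p = 0.15 from limma). Whether the place of the 3 genes near Myh7 plays a part was not tested. Thtpa held the Ronin motif in its promoter. Myh6 itself read 37529 and 47081 in knockouts and 46622 and 41662 in controls (−0.07, SE 0.18).

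**Figure D5:**
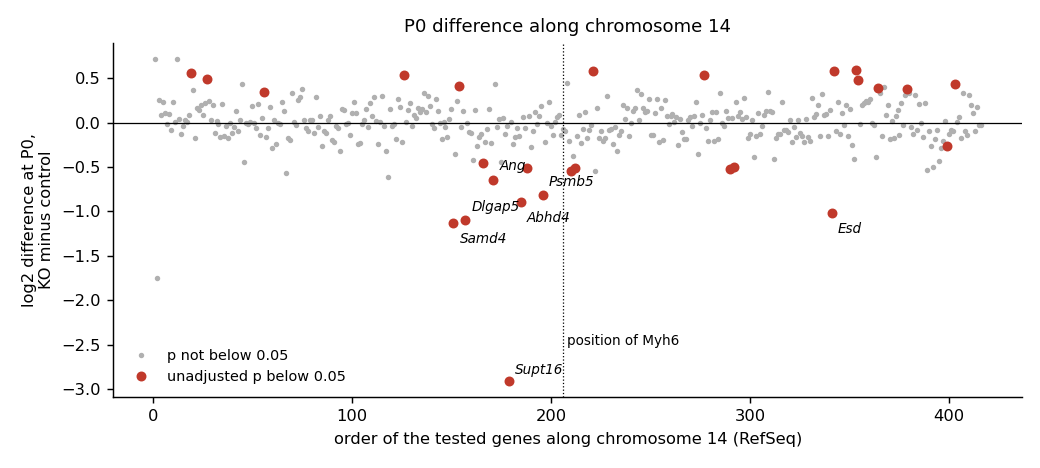
Log2 difference at P0, knockout minus control, of the 416 tested genes of chromosome 14 in their RefSeq order, with genes at an unadjusted p below 0.05 in red and the place of Myh6 as a dotted line. Of the red genes 13 lie above 0 and 14 below, and Supt16, Abhd4 and Psmb5 lie at places 179 to 196, before Myh6 at 206.

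The pathways of energy metabolism, which change around birth, showed no gene past an unadjusted p of 0.05 (3.71% of all genes). This held for the 39 tested genes of respiratory complex I (median log2 difference −0.05, 25 below 0), the 37 of complexes II to V (median −0.01), the 25 of fatty acid uptake and oxidation (median 0.03), the 21 of the TCA cycle (median 0.08) and the 19 of glycolysis (median 0.01). In complex I the lowest p belonged to Ndufa11, with 16257 and 12450 in knockouts and 17539 and 16888 in controls (−0.28, SE 0.16). Of 73 mitochondrial ribosomal proteins 46 were below 0 (63.0%), with a median of −0.05, and Mrpl34 was the only one past an unadjusted p of 0.05. Ppara, the nuclear receptor of fat oxidation, read 102 and 110 in knockouts and 117 and 140 in controls (−0.27, SE 0.14).

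The list of genes of the stressed and fetal heart also had a median near 0, though single members differed more. None of 21 tested genes of that list passed an unadjusted p of 0.05, and the median was −0.01. Nppa, which encodes atrial natriuretic peptide, read 69099 and 67317 in knockouts and 71203 and 65737 in controls, which is the upper end of the scale, so that a difference may be hidden. Myh7, the fetal myosin heavy chain, read 9650 and 8997 in knockouts and 6995 and 6686 in controls (0.45, SE 0.43), and Acta1, skeletal actin, 13843 and 9133 in knockouts and 9383 and 7967 in controls (0.38, SE 0.26). The groups of Myh7 did not overlap, those of Acta1 did, and the unadjusted p values were 0.31 and 0.17. Of the 47 tested genes of the dilated cardiomyopathy pathway, 17 were below 0, 6 had higher (14.6% of all genes) and 1 lower knockouts (15.7% of all genes) without overlap, and the median was 0.03. None of the 32 genes of matrix and fibrosis passed an unadjusted p of 0.05 (median 0.06).

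Calcium handling and conduction gave 4 of 38 tested genes below controls at an unadjusted p below 0.05 (1.76% of all genes) and none above, although the median of the list was 0.02. Cacna1h and Cacna1g encode T-type calcium channels of the fetal heart and the conduction system. Cacna1h read 684 and 574 in knockouts and 775 and 1495 in controls (−0.78, SE 0.25), and Cacna1g 255 and 243 in knockouts and 278 and 539 in controls (−0.64, SE 0.24). Casq1, skeletal calsequestrin, read 583 and 287 in knockouts and 567 and 967 in controls (−0.86, SE 0.30), with knockout 1 above control 1. Kcnj5, a subunit of the atrial potassium channel, read 232 and 183 in knockouts and 239 and 317 in controls (−0.42, SE 0.19). In each of these 4 genes control 2 stood higher than the other arrays and control 1 was nearer to knockout 1 than to control 2. Gja5, a connexin of atria and conduction fibres, showed both knockouts below both controls, with 2866 and 2434 in knockouts and 4026 and 3542 in controls (−0.52, SE 0.25). Of 9 atrial markers 8 were below 0, with a median log2 difference of −0.10, and none passed an unadjusted p of 0.05. Without Nppa and Myl4, which lay near the highest intensity, they summed to 51869 and 56105 in knockouts and 64489 and 64249 in controls. Sln, which inhibits the calcium pump in atria, read 13641 and 11183 in knockouts and 18274 and 16985 in controls, and Dkk3 read 8166 and 7421 in knockouts and 11236 and 8602 in controls. The knockouts lay below the controls in both, and they were the only 2 of the 9 without overlap (15.7% of all genes did so in this direction). Myl7, the brightest marker in that sum, overlapped, with 29313 and 36686 in knockouts and 34116 and 37876 in controls. The part of atrial tissue in Gja5 and Kcnj5 was not tested.

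Of 39 tested amino acid and stress response genes 15 lay below 0, with 12 of the 39 higher without overlap (14.6% of all genes) and 4 lower. One of them passed an unadjusted p of 0.05, Slc7a3, a cationic amino acid transporter, with 189 and 192 in knockouts and 112 and 106 in controls (0.80, SE 0.30). Control 2 lay below the median probe, the second probe of the gene gave 0.05, and Slc7a3 was called higher in E11.5 Nkx2.5 hearts (3.43). Asns, asparagine synthetase, read 3538 and 3983 in knockouts and 2944 and 2281 in controls (0.54, SE 0.30), and Chac1, which degrades glutathione, 233 and 228 in knockouts and 168 and 118 in controls (0.72, SE 0.49). The knockouts were above the controls in both, while the related genes Ddit3 and Trib3 differed by −0.09 and −0.11 (SE 0.26 and 0.56). The median of the list was 0.06.

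Among the remaining lists, 2 of 13 clock genes were above controls at an unadjusted p below 0.05 (1.95% of all genes), namely Nr1d2, a repressor of the clock (1080 and 1630 in knockouts, 1077 and 825 in controls, 0.49, SE 0.22), and Per2 (1413 and 1462 in knockouts, 999 and 1097 in controls, 0.46, SE 0.20). In Nr1d2, knockout 1 and control 1 were nearly equal. Fas, the death receptor, was the only p53-related gene of 21 to do so, with 451 and 462 in knockouts and 338 and 233 in controls (0.70, SE 0.25). Of 43 cell cycle genes only Meis1, a repressor of heart muscle cell division, passed (2579 and 3064 in knockouts, 2551 and 1935 in controls, 0.34, SE 0.16), and the mean over all its probes gave −0.01. Among immediate early genes Zfp36 was above controls (988 and 1462 in knockouts, 963 and 729 in controls, 0.52, SE 0.21), and Myc was below (123 and 117 in knockouts, 138 and 227 in controls, −0.56, SE 0.23).

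Of the cell type markers, those of the epicardium stood apart most, with a summed intensity of 7938 and 7586 in knockouts and 6471 and 6059 in controls over 7 genes and a median log2 difference of 0.29. Both knockouts lay above both controls for 5 of the 7 (14.6% of all genes), and none passed an unadjusted p of 0.05. Upk1b, a surface protein of the epicardium, read 1594 and 1501 in knockouts and 1267 and 1277 in controls (0.28, SE 0.20), and Lrrn4 read 311 and 452 in knockouts and 262 and 311 in controls (0.39, SE 0.24). Markers of endothelial cells, fibroblasts and smooth muscle had medians of 0.13, 0.07 and −0.06, and no marker of these types passed an unadjusted p of 0.05. Pparg, a regulator of fat cells, read 614 and 744 in knockouts and 509 and 416 in controls (0.56, SE 0.16), while Ucp1, Lep and Plin1 were among the dimmest fat markers. The part of cell composition in the differences above was not tested.

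The knockout effect at P0 was finally set against that at the other ages under the same driver, as a difference of differences in the same model. Against 6 weeks, 766 of 10956 genes (6.99%) had an unadjusted p below 0.05 for this difference and 11 passed an adjusted p of 0.05, 6 with a positive (0.0548%) and 5 with a negative difference (0.0456%). Of the 15 genes above, 3 were among them, Bckdk, Thyn1 and Rabac1, whose log2 difference at P0 lay 2.38 (adjusted p = 0.013), 1.99 (adjusted p = 0.0094) and 1.76 (adjusted p = 0.038) above that at 6 weeks. For 4 of the 11 the 6-week value could not have been reached at P0, given the controls and the lowest and highest intensity of the P0 knockout arrays, so that age and the range of the scale cannot be told apart for them. They are Phkg1, the muscle catalytic subunit of phosphorylase kinase (lowest log2 difference possible at P0 −1.79, against −2.39 at 6 weeks), Lgr6 (lowest −1.63, against −1.84), Tubb2b (highest 1.65, against 2.60) and Acta2, smooth muscle actin (highest 0.17, against 1.62). Phkg1 read 131 and 129 in knockouts and 178 and 202 in controls at P0, a log2 difference of −0.54. The tested Acta2 probe lay near the highest intensity, and 3 other bright probes gave 0.17, 0.28 and 0.29 at P0 with both knockouts above both controls. Nmrk2, a muscle enzyme of NAD synthesis, differed by −0.13 at P0 and by 4.81 at 6 weeks, and Nmrk2, Acta2, Lgr6, Tmtc1 and Tubb2b did not pass with the mean of all probes. Without control 2, 2 genes passed, and without knockout 2, 3 genes, and Phkg1 and Thyn1 were among them both times. Against αMHC hearts at E11.5, 0 of 10979 genes passed in limma, and 364 (3.32%) had an unadjusted p below 0.05.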

How the data were processed

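Total RNA of hearts was hybridised to Illumina MouseWG-6 v2.0 bead arrays. The authors made the deposited intensities, on a linear scale, with GenePattern's Illumina modules and cubic spline normalization. Arrays give no read depth, so their number limits the precision. Medians of the P0 arrays were alike at 108, but medians ranged from 58.2 to 108.2 over all arrays, so levels were not compared between comparisons. Differences between ages are differences of log2 differences, and the lowest and highest intensity of an array bound each of them. A second table of values without normalization was not used, because the names of its 22 columns match no sample label.

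Intensities were taken to log2 and fitted with limma 3.58.1 (statmod 1.5.0, R 4.3.3) as 1 model of 22 arrays and 10 group means. Array weights were set per comparison (0.861 for P0), the variance trend was modelled, and p values were adjusted by Benjamini-Hochberg over 11779 genes. Each gene was read from its brightest probe, above the median of all probes at P0 (an intensity of 107.6). Of all probes 34885 named 1 symbol, 18 several and 10378 none. A difference of 2 arrays against 2 is knockout minus control on the log2 scale, with its standard error, unless stated otherwise. Called means an adjusted p below 0.05.

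The members and gene lists were chosen with earlier results of these data known. Named genes are Thap11, the 12 largest differences each way among genes with an unadjusted p below 0.05 and no overlap, genes passing the adjusted test with any P0 array left out, the 4 members of each list with the lowest p, the targets examined by chromatin qPCR, and genes called at 6 weeks with the lowest p there or at P0. The 15 genes called lower in 3 other comparisons, chromosome 14 and other genes outside this rule were singled out after their values were seen. Alternatives were the P0 arrays alone, equal weights, further scaling, other filters, all probes, a replicate block, each array left out and the methods' t-test. Markers above an intensity of 53149 (0.8 of the lowest array maximum) were left out of sums where stated, a limit chosen after seeing the data. The fit was tested on simulated data. Promoters came from RefSeq (GRCm38.p6), and the genome build behind the probes is not given in the sources used here.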

Additional observations from a re-analysis of the deposited data

Results flagged for a closer look

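The effect of the knockout at P0 was tested against that at 6 weeks in 1 model, and 11 genes differed between the ages at an adjusted p below 0.05 (limma). Each value is the P0 difference minus the 6-week difference on the log2 scale. Bckdk (2.38), Thyn1 (1.99), Phkg1 (1.85), Lgr6 (1.83), Rabac1 (1.76) and Tmtc1 (1.37) had a positive difference. Tubb2b, a beta-tubulin, differed by −2.71 between the ages, with a log2 difference of −0.11 at P0 against 2.60 at 6 weeks. Nmrk2 (−4.93), Chil1, a chitinase-like protein (−2.35), Acta2 (−1.63) and Rpl3, a ribosomal protein (−0.99), had negative differences as well. Rpl3 stood at 34893 and 33942 in P0 knockouts and 34945 and 33397 in P0 controls. Tmtc1 was the only one of the 11 with opposite signs and an unadjusted p below 0.05 at P0, with 195.0 and 194.5 in knockouts and 160 and 135 in controls at P0 (log2 difference 0.41) and −0.96 at 6 weeks. Phkg1 and Thyn1 passed with each P0 array left out in turn. The 6-week values of Phkg1, Lgr6, Tubb2b and Acta2 lie outside what the intensity range of the P0 arrays allows, and that of Rpl3 (1.00) is just within it (1.01), so that age and the range of the scale cannot be told apart for these 5 genes. With the mean of all probes, Acta2, Nmrk2, Tubb2b, Lgr6 and Tmtc1 did not pass.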

How the results depend on the processing

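No gene passed the adjusted test at P0 under equal weights, both scalings, both filters, the mean of all probes, every member probe or the methods' t-test (378 genes at an unadjusted p below 0.05). The 4 P0 arrays fitted alone gave 2 genes (D830030K20Rik and Supt16), and leaving out 1 array gave 0 to 8. The 437 genes at an unadjusted p below 0.05 became 801 with no filter, 226 with the stricter filter, 693 with every member probe and 162 to 1012 with 1 array left out. The 116 genes over 1.5-fold became 60 with the mean of all probes, and 119 to 585 with 1 array left out. Thap11 had an unadjusted p below 0.05 in the P0 arrays alone, at −0.41, and ranged from −0.48 to −0.34 with 1 array left out. Of the 24 largest differences 11 to 22 stayed below 0.05 with 1 array left out. Meis1 was at −0.0064 with the mean of all probes. The 11 genes that differed between P0 and 6 weeks became 0 in the P0 and 6-week arrays fitted alone, 47 with equal weights, 34 with no filter, 7 with the stricter filter, 16 with the mean of all probes (6 of the 11 among them) and 2 to 15 with 1 array left out. Against E11.5, 0 genes became 1 in the arrays fitted alone and 0 to 2 with 1 array left out. With the replicate block, Supt16 alone passed at P0 (1 gene), 39 genes differed between P0 and 6 weeks and 2 between P0 and E11.5. The labels give same-numbered arrays only a common number (correlation of their deviations 0.22 over 1 pair of differences), and whether they share more was not tested. The cause of these changes was not tested.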
